A study of Macaca mulatta with 161 samples.

Results

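The PRAMEF genes of rhesus monkey were taken as every row of the deposited table whose symbol begins with PRAMEF. These were PRAMEF2, PRAMEF10, PRAMEF11, PRAMEF12, PRAMEF19 and PRAMEF20, 6 of 16049 rows, and all 6 are described. The symbols are those of the human genes. The family was chosen by its measured FPKM across the stages of these cells, so the levels below are a description and carry no test.

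PRAMEF genes belong to the PRAME family, which encodes proteins built of leucine-rich repeats. The founding member PRAME, an antigen of melanoma and testis, serves in human cells as a substrate receptor of the CUL2 ubiquitin ligase. In human the PRAMEF genes lie as a tandem array of near-identical copies. Several of them are switched on by the transcription factor DUX4 around embryonic genome activation. The mouse relatives Pramel6 and Pramel7 are expressed in preimplantation embryos. Reads of near-identical copies can be assigned to the wrong copy, so a level of 1 PRAMEF row is uncertain wherever another row is high, and the summed level is given beside it.

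Each of the 161 libraries came from 1 unstained inner cell of a blastocyst. There were 44 cells of early blastocysts (about E5), 39 of middle (about E5.5), 52 of late (about E6) and 26 of hatching blastocysts (about E7), which the protocol calls hatched. All embryos were fertilised and cultured in vitro, were dyed on the outside with PKH26 so that inner cells stayed dark, and gave PCR-amplified polyA cDNA read as 150-bp pairs. No label names the embryo or mother of a cell, so a stage is 1 sample and cells are not its replicates: no p-value is given, and intervals (exact Clopper-Pearson, 95%) cover the counting error of cells only. In single cells a gene at 0 may have been missed in amplification.

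Levels are in FPKM, a read density that corrects for transcript length and for the depth of each cell. The reads recovered from the steps of these values came to 3.08 to 19.6 M (mega) in a cell, with 11.6 M as the median. By stage the medians were 11, 12.4, 10.8 and 11.4 M from early to hatching. The number printed in the titles of the early cells followed their transcriptomes: clustering without the PRAMEF genes separated numbers 1 to 28 from 29 to 48, with cell E9 alone. What the numbers mean is not stated in the labels. Below, early cells 1 to 28 include E9 unless it is said to be left out.

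Early cell E9 stood apart from all other early cells and held 93.5% of the PRAMEF FPKM of the 161 cells, so levels are given with and without it. Its median Spearman correlation with the other early cells across 9781 genes was 0.53, against 0.73 to 0.79 for each of the other early cells. It had 6.26 M recovered reads, and its 5873 genes at FPKM of at least 1 were the fewest among the 44 early cells.

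In E9, PRAMEF12 stood at 7931 FPKM, which is 88935 reads. PRAMEF2 stood at 1771 FPKM there, PRAMEF10 at 1690 FPKM, PRAMEF11 at 1448 FPKM, PRAMEF20 at 377 FPKM and PRAMEF19 at 61.5 FPKM. Together the 6 genes took 145230 reads, 2.32% of the recovered reads of E9. By the difference between E9 and the mean of the other early cells in log2(FPKM + 1), PRAMEF12 ranked 1, PRAMEF2 ranked 4, PRAMEF10 ranked 6, PRAMEF11 ranked 8 and PRAMEF20 ranked 25 among the genes of the table. PRAMEF19 ranked 455. PRAME, the family's founding member, had 0.15 FPKM in E9, against a median of 17.7 FPKM in the other 43 early cells. E9 lay within their range of 0 to 124 FPKM, as PRAME was at FPKM of at least 1 in 29 of these 43 cells.

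**Figure D1:**
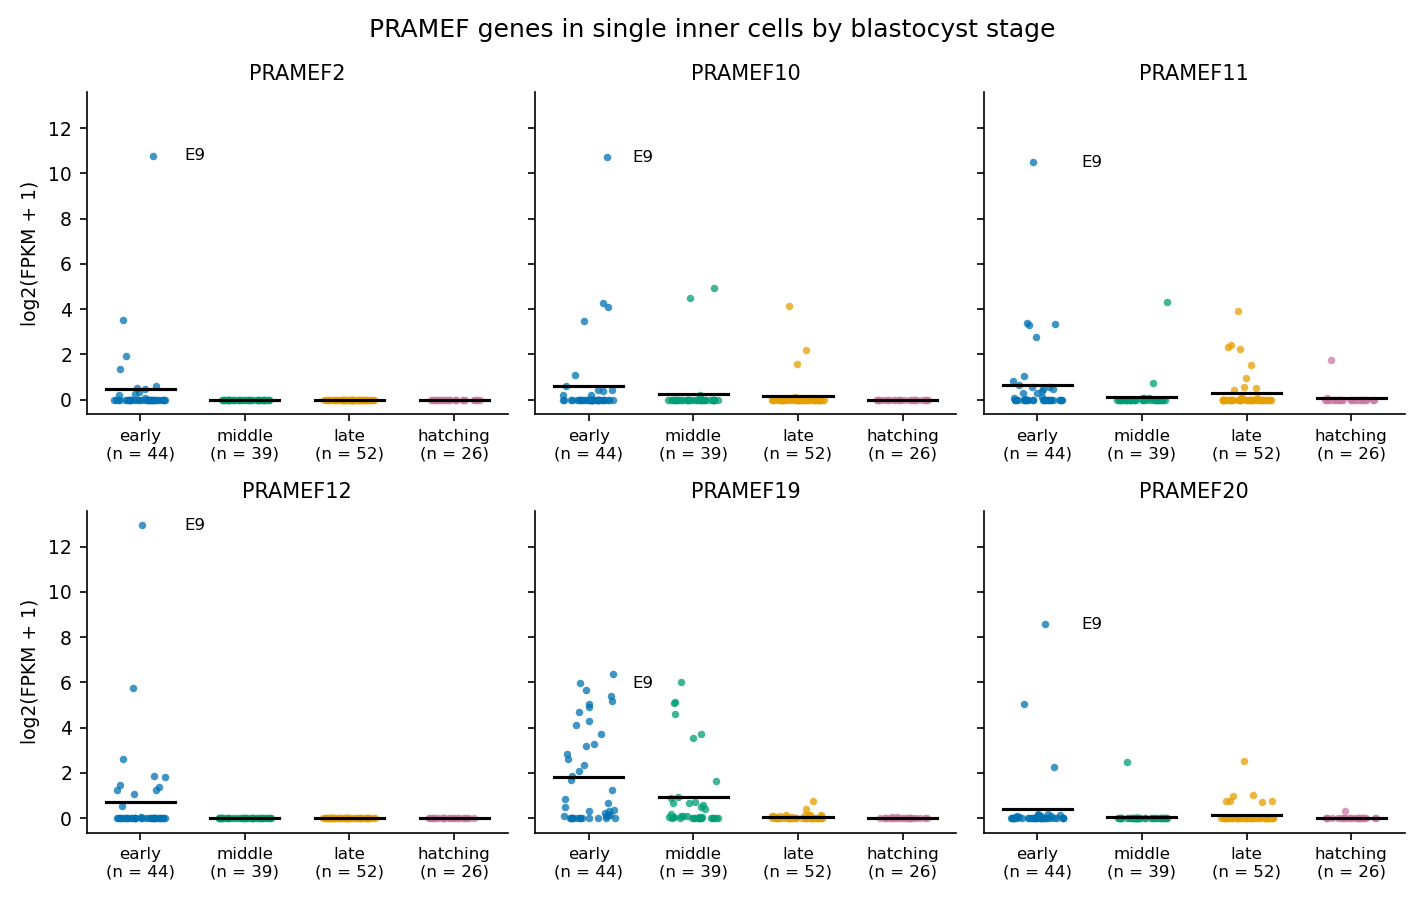
Level of the 6 PRAMEF genes, log2(FPKM + 1) on the vertical axis, in each cell of the 4 stages; a point is a cell and the black line the mean over cells of the stage. E9 lies far above all other cells in PRAMEF2, PRAMEF10, PRAMEF11, PRAMEF12 and PRAMEF20, while PRAMEF19 is spread over many early and middle cells and stays below FPKM of 1 in late and hatching cells.

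PRAMEF12 and PRAMEF2 were confined to early cells in these libraries. PRAMEF12 had reads in 12 of 44 early cells and 0 FPKM in all 39 middle, 52 late and 26 hatching cells. By the exact intervals this allows shares of cells with a read of up to 9.03%, 6.85% and 13.2%. PRAMEF2 had reads in 11 early cells, each of them also holding PRAMEF12 reads, and was listed at 0 in the same later cells. Of the 12 cells, 9 bore the title numbers 3 to 10 and 12, and these are all the early cells of the table in that range.

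The early cells around E9 in number carried its genes at a small share of its level. In E8, the next highest cell, PRAMEF12 had 52.1 FPKM (771 reads), which is 0.66% of its level in E9. In the same cell PRAMEF2 stood at 0.60% of E9, PRAMEF10 at 0.59%, PRAMEF11 at 0.64%, PRAMEF20 at 1.01% and PRAMEF19 at 0.27%. PRAMEF12 had 5.08 FPKM in E10, 2.65 FPKM in E4, 2.58 FPKM in E7, 1.76 FPKM in E12, 1.58 FPKM in E3, 1.34 FPKM in E6 and 1.07 FPKM in E5. The 5 genes other than PRAMEF19 were all above 0 in each of these cells. PRAMEF2 relative to PRAMEF12 was 0.22 in E9, 0.20 in E8 and between 0.10 and 0.33 in the rest of them. Outside this range of numbers PRAMEF12 had 1.40 FPKM in E29 (32 reads), 0.46 FPKM in E44 (12 reads) and 1 read in E43. E44 differed in the order of the copies, with PRAMEF2 at 2.83 FPKM (68 reads), above PRAMEF12.

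The same trace was present for genes outside the PRAMEF family. There were 20 other genes that reached FPKM of 50 in E9 and stayed below 1 in all middle, late and hatching cells. They include the chemokine CCL17 (806 FPKM in E9), the tripartite motif gene TRIM51 (1414 FPKM) and the transcription factor OSR1 (385 FPKM). All 20 were above 0 in E8, at a median of 0.61% of their level in E9 and a range of 0.23% to 1.84%. In E10 there were 13 above 0, and in the other cells numbered 3 to 12 between 2 and 11. In the 35 early cells outside this range no more than 2 of the 20 were above 0, and in 26 of them there were 0. These 20 genes and the range of numbers were chosen after their values were seen. Whether any of the 20 share regulation with the PRAMEF genes was not tested. Whether reads of E9 reached the libraries with nearby numbers was not tested.

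**Figure D2:**
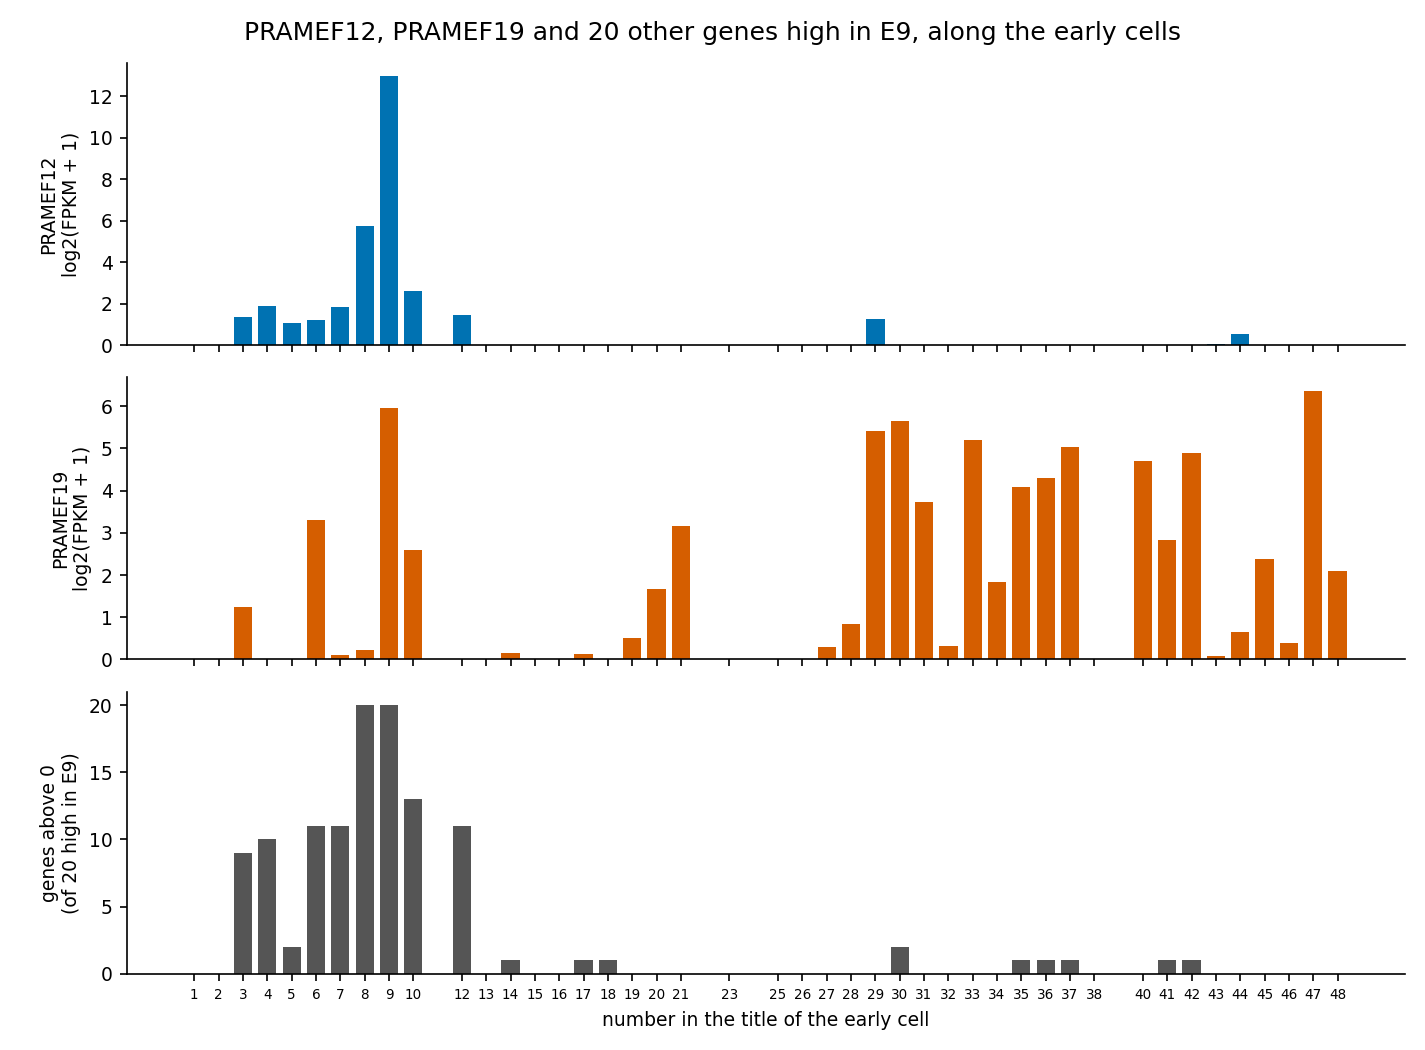
Level of PRAMEF12 (top) and PRAMEF19 (middle), log2(FPKM + 1), and the number of the 20 other genes high in E9 that were above 0 (bottom), in each of the 44 early cells along the number in its title. PRAMEF12 and the 20 genes are found together in cells 3 to 12 and peak at cells 8 and 9, whereas most of the early cells high in PRAMEF19 are numbered 29 or above.

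**Figure D3:**
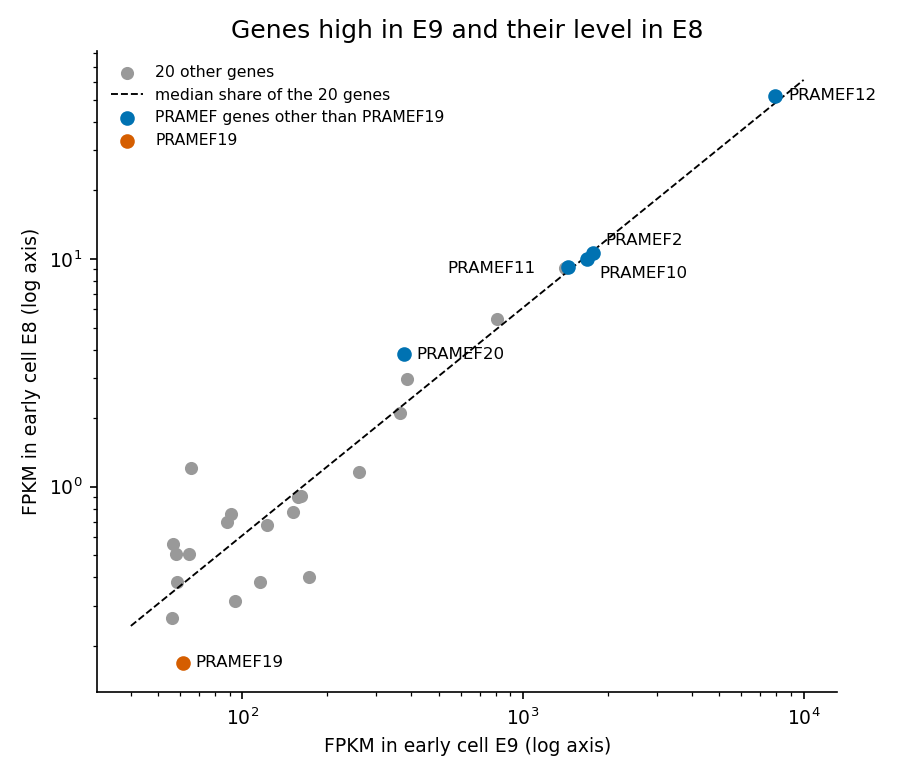
FPKM in E9 (horizontal, log axis) and in E8 (vertical, log axis) of the 6 PRAMEF genes and of the 20 other genes high in E9. The dashed line is the median share of the 20 genes, 0.61% of the level in E9; PRAMEF12, PRAMEF2, PRAMEF10 and PRAMEF11 lie near it, PRAMEF20 above and PRAMEF19 below.

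Among 13 genes with a row from a list of DUX4-response and genome-activation genes, the PRAMEF levels of E9 had company in some and not in others. Of the 11 that reached FPKM of 1 in some cell, 5 had their highest value of all 161 cells in E9, where 7.15% of 13827 such genes did. The next cell by that count, late cell L13, had 4% of them. ZNF280A, a zinc finger gene, had 839 FPKM in E9, against 0, 5.14 and 67.3 FPKM as the lowest, median and highest of the other early cells. The germline cyclin CCNA1 had 764 FPKM in E9, and at most 4.72 FPKM in the other early cells. The histone demethylase KDM4E had 369 FPKM in E9, against at most 14.8 FPKM in the others. SLC34A2, a phosphate transporter, stood at 293 FPKM, against at most 21.8 FPKM, and the pluripotency factor KLF17 at 105 FPKM, against at most 41.1 FPKM. KLF17 is also in the epiblast list used here.

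KHDC1L, DPRX and ARGFX were lower in E9 than in the median early cell. DPRX, a homeobox gene, had 21.3 FPKM in E9, below the lowest of the other early cells, 222 FPKM. KHDC1L had 1171 FPKM in E9, against 5500 to 23674 FPKM in the others. The homeobox gene ARGFX stood at 0.14 FPKM in E9 (median of the others 10.0) and DUXA at 0.13 FPKM (median 0.05), both within the range of the others. ZSCAN4 and LEUTX were listed at 0 in all 161 cells.

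**Figure D4:**
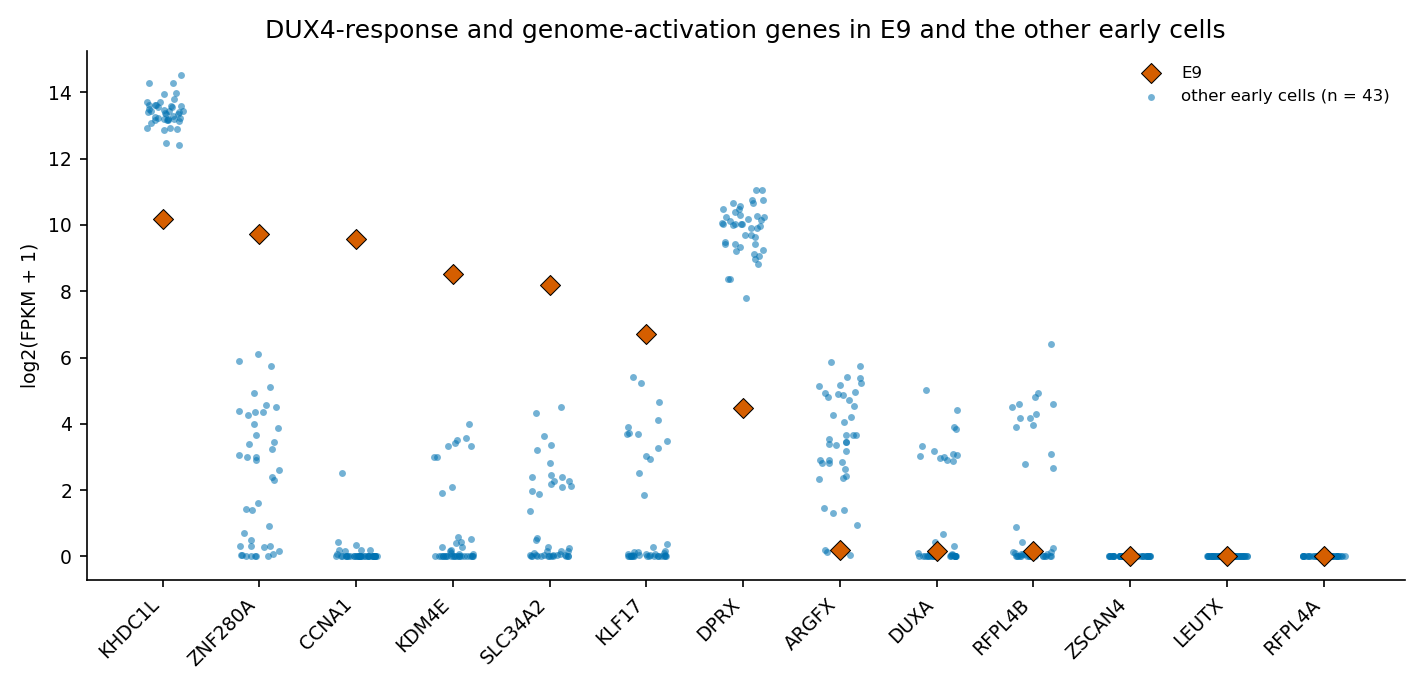
Level, log2(FPKM + 1), of the 13 DUX4-response and genome-activation genes with a row, in E9 (diamonds) and in the other 43 early cells (points), ordered by the level in E9. ZNF280A, CCNA1, KDM4E, SLC34A2 and KLF17 lie above every other early cell in E9, and KHDC1L and DPRX below every one.

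Markers of the cell types a blastocyst could hold gave E9 no clear name. It formed a cluster alone, and clusters of fewer than 5 cells were not named. In it 3 epiblast, 4 primitive endoderm and 3 trophectoderm markers were raised over the other early cells. A marker score of single cells, which names every cell, called E9 endoderm-like. The pluripotency factor POU5F1 had 82.2 FPKM in E9, against 627 to 1426 FPKM in the other early cells. NANOG had 6.45 FPKM in E9, against 46.1 to 412 FPKM. Some other lineage genes were above the median of the other early cells. SOX2, an epiblast factor, had 39.5 FPKM in E9, within the 0 to 55.2 FPKM of the others (median 1.82). PDGFRA, an endoderm receptor, had 30.4 FPKM, within their 0 to 51.4 FPKM (median 5.29). LEFTY1, a Nodal antagonist, had 2465 FPKM in E9, its highest of all cells (median of the others 0). The trophectoderm factor CDX2 had 0.20 FPKM (median 52.8) and the trophectoderm gene CLDN4 16.9 FPKM, against 343 to 3627 FPKM. At FPKM of at least 1, E9 held 7 of 14 epiblast markers (median of the others 10), 5 of 17 primitive endoderm markers (6) and 4 of 14 trophectoderm markers (6). The trophectoderm gene HAND1 and the endoderm factors GATA4 and FOXA2 were at 0. The summed FPKM was 474 for the epiblast list in E9 (1469 to 12345 in the others, median 6753), 167 for the endoderm list (59.6 to 1116, median 133) and 242 for the trophectoderm list (414 to 3704, median 1293). Of 10 markers of the cumulus cells that surround an oocyte, 9 were at 0 in E9, FOXL2 and CYP19A1 among them, and GATM made up the summed 21.9 FPKM (0 to 42.1 in the others). The housekeeping genes ACTB (846 FPKM) and GAPDH (133 FPKM) had their lowest value of all cells in E9. Their part in the PRAMEF levels was not tested. The genes named in E9 outside the lists were chosen after their values were seen.

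PRAMEF19 was the member found in many cells. At FPKM of at least 1 it was present in 20 of 44 early cells (45.5%, interval 30.4% to 61.2%), in 7 of 39 middle cells (17.9%, 7.54% to 33.5%), in 0 of 52 late cells and in 0 of 26 hatching cells. By the exact intervals a count of 0 allows shares of up to 6.85% in late and 13.2% in hatching cells. Early cells averaged 1.82 on the log2(FPKM + 1) scale with an SD between cells of 2.13 (1.73 without E9), and middle cells 0.92 with an SD of 1.70. The mean of late cells was 0.05 (SD 0.12) and that of hatching cells 0.00 (SD 0.01). The lowest early and middle cells were at 0. The median early cell had 0.50 FPKM and the highest, E47, 81.4 FPKM (3009 reads). The median middle cell had 0.04 FPKM and the highest, M44, 64.4 FPKM (1931 reads). The highest late cell had 0.69 FPKM and the highest hatching cell 0.04 FPKM.

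Traces of PRAMEF19 were more widespread than these shares. Any read was found in 31 of 44 early, 24 of 39 middle, 14 of 52 late and 2 of 26 hatching cells. With each cell thinned to 2.5 M reads, the share with a read was 62.8% in early, 44.2% in middle, 11.8% in late and 1.33% in hatching cells, in the same order as the levels. Among the 27 cells at FPKM of at least 1 the values ran from 1.36 FPKM in E3 to 81.4 FPKM in E47, with medians of 14.2 FPKM in the 20 early and 23.6 FPKM in the 7 middle cells. Genes that appear in many early cells and in neither later stage were few: of 7277 genes at FPKM of at least 1 in 20 or more early cells, PRAMEF19 was the only gene with no late or hatching cell at that level (0.0137%). The minimum of 20 is the count of PRAMEF19 itself, with E9 among its cells. Without E9 the count was 19 of 43 early cells (44.2%), below that minimum. The family and the minimum were both chosen with these values known, so nothing is read from its being the only such gene. At a minimum of 15 cells 2 of 7963 genes were so, PRAMEF19 and the transketolase gene TKTL1, and at 10 cells 7 of 8708.

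Within the early stage PRAMEF19 followed the title numbers. PRAMEF12 was at FPKM of at least 1 in 1 of 19 early cells numbered 29 to 48 and in 9 of 25 numbered 1 to 28. These 9 were E9 and the other cells numbered 3 to 12. Outside that range PRAMEF12 reached this level in 1 of 35 early cells, so its split by number rests on E9 and the cells around it. In early cells numbered 29 to 48 PRAMEF19 was at FPKM of at least 1 in 14 of 19 (73.7%, 48.8% to 90.9%), with a mean log2(FPKM + 1) of 3.16 (SD 2.14). In early cells numbered 1 to 28 it was so in 6 of 25 (24%, 9.36% to 45.1%), with a mean of 0.81 (SD 1.48). These 6 include E9 at 61.5 FPKM, and the mean includes it too. Cell type markers differed between these early cells too. The naming rule used below for late and hatching cells called the cluster of cells 29 to 48 trophectoderm-like. It called the cluster of cells 1 to 28 without E9 epiblast-like. A marker score of single cells gave other names to some cells of both sets, E41 (epiblast-like) and E1 (endoderm-like) among them. Of 14 trophectoderm markers with a row, CDX2, GATA2, HAND1 and PGF were higher by 1 log2 unit or more in cells 29 to 48, with a summed FPKM of 822 to 3113 (median 1430), against 414 to 3704 (median 1036) in cells 1 to 28 without E9. Of 14 epiblast markers, ARGFX and KLF17 were higher by as much in cells 29 to 48. TDGF1, DPPA5, UTF1 and IFITM1 were so in cells 1 to 28 without E9. The epiblast list summed to 1469 to 7413 FPKM (median 4270) in cells 29 to 48. In cells 1 to 28 without E9 it summed to 4859 to 12345 FPKM (median 9359). No primitive endoderm or cumulus marker was higher by 1 log2 unit in either set. The endoderm list summed to 59.6 to 616 FPKM in cells 29 to 48 and 78.3 to 1116 FPKM in cells 1 to 28 without E9, and the cumulus list to 0 to 39.5 FPKM in cells 29 to 48 and 0 to 42.1 FPKM in cells 1 to 28 without E9. The part of these genes in the PRAMEF19 difference was not tested. Among middle cells the counts of PRAMEF19 at FPKM of at least 1 were 4 of 12 for numbers 32 to 55 (33.3%, 9.92% to 65.1%) and 3 of 25 for numbers 3 to 29 (12%, 2.55% to 31.2%), with overlapping intervals. Any read was found in 8 of 12 middle cells numbered 32 to 55 and 15 of 25 numbered 3 to 29. Early cells 29 to 48 were also the more deeply sequenced, with a median of 14.6 M reads against 8.83 M for 1 to 28. At 2.5 M reads the share with a PRAMEF19 read was 88.9% in cells 29 to 48 and 42.9% in cells 1 to 28. The numbers may stand for embryos, days or other unstated groups, and these cannot be told apart from cell state.

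PRAMEF19 and PRAME overlapped in part. PRAME was at FPKM of at least 1 in 29 of 44 early, 21 of 39 middle, 9 of 52 late and 0 of 26 hatching cells. In early cells it was so in 14 of 20 cells with PRAMEF19 at that level (70%, 45.7% to 88.1%) and in 15 of 24 cells without (62.5%, 40.6% to 81.2%). In middle cells the counts were 6 of 7 (85.7%, 42.1% to 99.6%) and 15 of 32 (46.9%, 29.1% to 65.3%). The middle cell with most PRAMEF19, M44, had 0.21 FPKM of PRAME. E47, with most PRAMEF19 of all, had 52.7 FPKM. Across the 161 cells, which share stage and library preparation, Spearman's rho of both genes was 0.46. Within early cells alone it was 0.12, and within middle cells 0.44.

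**Figure D5:**
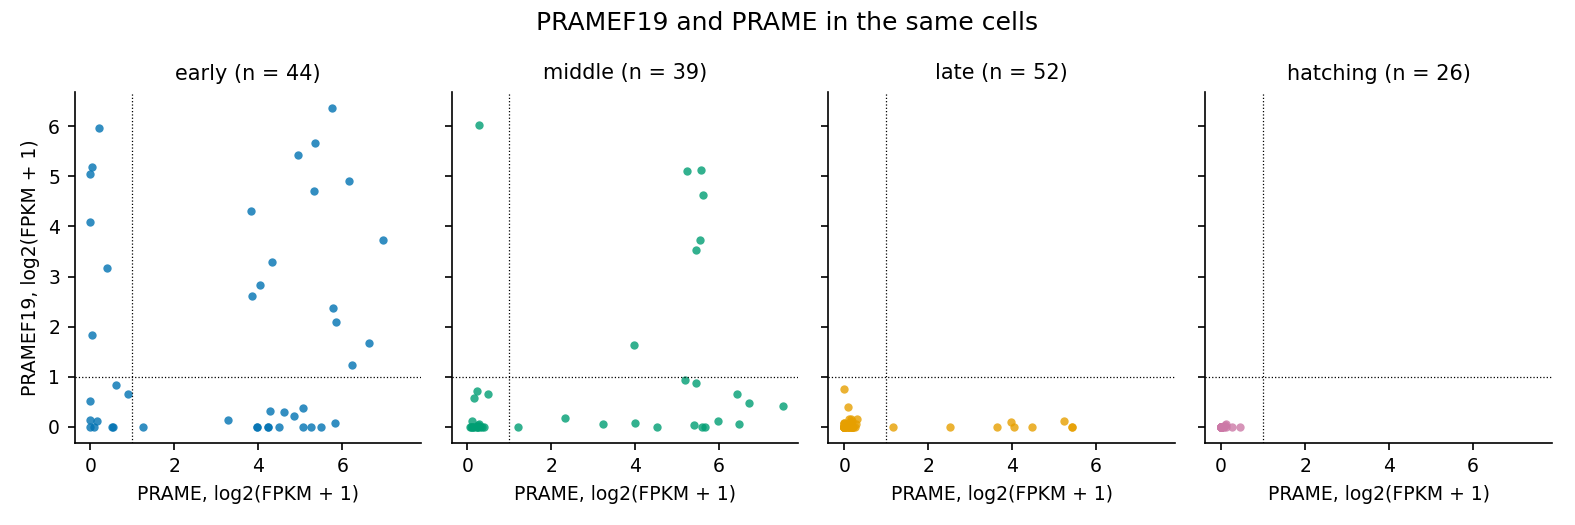
PRAMEF19 (vertical) against PRAME (horizontal), log2(FPKM + 1), in each cell of the 4 stages; dotted lines mark FPKM of 1. Early and middle cells fill all 4 quadrants, late cells reach FPKM of 1 in PRAME alone (9 of 52), and hatching cells in neither.

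PRAMEF10, PRAMEF11 and PRAMEF20 were each found in scattered cells and, unlike PRAMEF2, PRAMEF12 and PRAMEF19, reached FPKM of 1 in late cells too. PRAMEF10 was at that level in 5 early, 2 middle, 3 late and 0 hatching cells. Outside E8, E9 and E10 these were E31 (18.5 FPKM), E48 (16.2 FPKM), M45 (29.7 FPKM), M28 (21.2 FPKM), L50 (16.7 FPKM), L8 (3.54 FPKM) and L28 (2.01 FPKM). Most cells of each stage were at 0, with a few isolated high values.

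PRAMEF11 was at FPKM of at least 1 in 6 early, 1 middle, 5 late and 1 hatching cell. Its highest values after E9 were 19.1 FPKM in M32, 14.3 FPKM in L7 and 9.45 FPKM in E16. H45, with 2.32 FPKM (56 reads) of PRAMEF11, was the only hatching cell in which any of the 6 genes reached FPKM of 1. PRAMEF20 did so in 3 early, 1 middle, 2 late and 0 hatching cells, and was highest after E9 in E48 at 31.7 FPKM.

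Some copies were found in the same cells and others were not. PRAMEF2 and PRAMEF12 shared 11 of the 12 cells holding either (Spearman's rho over 161 cells 0.96, with and without E9). Of these 11, 9 were E9 and the other cells numbered 3 to 12, and 2 were E29 and E44. Leaving out E9 alone keeps its neighbours, and most of the 161 cells were at 0 for both genes. This rho therefore does not show that the 2 copies move together. E31 held PRAMEF10, PRAMEF11 (8.85 FPKM) and PRAMEF19 (12.4 FPKM) but no read of PRAMEF2, PRAMEF12 or PRAMEF20. M32 held PRAMEF11 and PRAMEF20 (4.67 FPKM) without PRAMEF10, and L56 held PRAMEF11 (3.67 FPKM) and PRAMEF20 (4.69 FPKM) without PRAMEF10. At FPKM of at least 1, E9 had all 6 members and 2 other early cells had 5, E8 and E10 of the cells around it. Among early cells 16 had none, 20 had 1, 3 had 2 and 2 had 3. Of middle cells 30 of 39 had none, of late cells 43 of 52 and of hatching cells 25 of 26.

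Summed over the 6 rows, the early cells had a mean log2(FPKM + 1) of 2.68 with an SD of 2.72, or 2.43 with an SD of 2.14 without E9. Middle cells averaged 1.19 (SD 1.93), late cells 0.58 (SD 1.04) and hatching cells 0.08 (SD 0.36). The median cell had 4.09, 0.08, 0.04 and 0 FPKM from early to hatching, and all stages had cells at 0. 
Hatching minus early, the difference of the summed level was -2.61 log2 units (-2.35 without E9). Of the 6 members, 1 (PRAMEF19, -1.82, or -1.72 without E9) was lower by 1 log2 unit or more, where 16.2% of 9781 genes with mean FPKM of at least 1 were, and 0 of 6 were higher by as much (11.3% of genes). Without E9, 16.9% of genes were lower and 11.2% higher. The PRAMEF19 difference was -0.81 with early cells 1 to 28 alone, -0.64 with a pseudocount of 10 and -0.58 by the median over cells, all under 1 log2 unit in size. The others differed by -0.37 (PRAMEF20) to -0.73 (PRAMEF12), and without E9 by -0.18 (PRAMEF20) to -0.44 (PRAMEF12). Without early cells 3 to 12 PRAMEF12 differed by -0.05 and PRAMEF2 by -0.06. All 6 members passed that filter on mean FPKM, and without E9 only PRAMEF19 did, so the other 5 stand among the 9781 genes through that cell. The median of the 9781 genes was -0.12, and this shift was -0.00 after median-of-ratios scaling.

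Middle minus early, the summed level differed by -1.50 (-1.24 without E9). It was -0.76 with early cells 1 to 28 alone, E9 included, and -2.47 with early cells 29 to 48 alone. With middle cells 32 to 55 alone against all early cells it was -0.41, and without early cells 3 to 12 it was -1.10. In the summed level cells 3 to 12, E9 included, averaged 4.25 and all early cells 1 to 28 averaged 1.94. The -0.76 therefore rests in part on cells 3 to 12, and a difference for cells 1 to 28 without them was not computed. At this step 0 of 6 members were past 1 log2 unit, where 3.61% of genes were lower and 3.06% higher by that much (3.74% lower and 2.91% higher without E9). PRAMEF19 differed by -0.90. With early cells 1 to 28 alone its difference was 0.11, and with middle cells 32 to 55 alone 0.02, so its direction between these stages rests on which numbered cells are compared. Late minus middle, the summed level differed by -0.61 and PRAMEF19 by -0.87, with 0 of 6 members past 1 log2 unit (5.82% of genes lower and 3.95% higher). PRAMEF2 and PRAMEF12 were listed at 0 in both of these stages and could not differ, and 5 of the 6 are among the genes tested only through E9, so nothing is read from these counts of 0. Hatching minus late, the summed level differed by -0.50, again with 0 of 6 past it (9.87% of genes lower and 7.26% higher). PRAMEF2 and PRAMEF12 were at 0 in hatching cells too, so nothing is read from this count either.

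Late and hatching cells could be divided by markers into cells like the primitive endoderm, which lines the later yolk sac, and cells like the epiblast, from which the embryo proper forms. Clusters were built without the markers, the PRAMEF genes or the listed genes. In the earlier stages the same rule gave the names of early cells stated above. It named 26 middle cells trophectoderm-like (22 with 5 principal components) and no middle cells PE-like or EPI-like. Of 52 late cells 29 were PE-like and 23 EPI-like, and of 26 hatching cells 7 were PE-like and 19 EPI-like. In late cells the summed PRAMEF level averaged 0.25 (SD 0.79) in PE-like cells and 0.99 (SD 1.18) in EPI-like cells. It reached FPKM of 1 in 2 of 29 PE-like (interval 0.85% to 22.8%) and 8 of 23 EPI-like cells (16.4% to 57.3%), with overlapping intervals. For single genes, 0 of 29 PE-like and 3 of 23 EPI-like late cells had PRAMEF10 at FPKM of at least 1, 2 of 29 PE-like and 3 of 23 EPI-like cells had PRAMEF11, and 0 of 29 PE-like and 2 of 23 EPI-like cells had PRAMEF20. None of the 6 members differed by 1 log2 unit (9.03% of genes were lower and 8.58% higher in PE-like cells by that much). PRAME lay the other way, in 9 of 29 PE-like and 0 of 23 EPI-like late cells, with mean log2(FPKM + 1) of 1.30 in PE-like and 0.07 in EPI-like cells. Late cells titled L with a number also differed by that number. PRAME reached FPKM of 1 in 6 of 18 numbered 3 to 22 and in 2 of 29 numbered 25 to 61. The summed level did so in 6 of 18 and 4 of 29. Class and number were not separated. In hatching cells the summed level was 0.02 in PE-like and 0.10 in EPI-like cells, again with none of the 6 past 1 log2 unit (33.7% of genes lower and 14.2% higher in PE-like cells). PRAMEF2 and PRAMEF12 were at 0 in all late and hatching cells and could not differ. Without E9, an early cell, only PRAMEF19 passes the filter on mean FPKM. Nothing is therefore read from the counts of members between these classes. These classes come from the same cells as the levels, so the differences carry no test.

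Of genes that work with or lie near the family, 17 of the CUL2 ubiquitin ligase list passed the filter, and hatching minus early their median difference was -0.24, with 2 higher and 5 lower by 1 log2 unit, where 11.3% of all genes were higher and 16.2% lower and the median was -0.12. PRAME itself differed by -3.24, the conjugating enzyme UBE2F by -1.59, the scaffold CUL2 by -1.42 and UHRF1, a reader of DNA methylation, by 1.85. Of the DUX4-response list 11 passed, with a median of -0.85, 1 higher and 4 lower. DPRX differed by -5.67, ARGFX by -3.29, ZNF280A by -1.85 and CCNA1 by 2.09. Of 14 genes with a row from the flanks of the human PRAMEF cluster 10 passed, with a median of -0.20, 1 higher and 2 lower: PDPN differed by 2.51, KAZN by -1.70 and MFN2 by -1.02. Of 12 flanking genes that reached FPKM of 1 in some cell, VPS13D (17.3 FPKM) and PRDM2 (78.5 FPKM) had their highest value of all cells in E9, as did TCEB1 (155 FPKM) and FEM1B (133 FPKM) of 17 genes of the CUL2 list, where 7.15% of all such genes did. Of a list of genes named for oocyte transcripts 4 passed, with a median of -0.02 and 0 past 1 log2 unit. OOEP and KHDC3L were at FPKM of at least 1 in all 26 hatching cells, so the name of the list does not give their origin here. OOEP differed by -0.62, KHDC3L by 0.70 and TLE6 by 0.47. These directions turned with hatching cells 1 to 18 alone for KHDC3L (-1.56), with hatching cells above 18 alone (0.45) or by the median over cells (0.14) for OOEP and with early cells 1 to 28 alone for TLE6 (-0.09). Of this list, 0 of 14 genes that reached FPKM of 1 were highest in E9.

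The genes most like the summed PRAMEF level over the 161 cells were ARGFX (Spearman's rho 0.56), PDCL3 (0.52), M1AP (0.52), GPRC5A (0.49), LAP3 (0.49), ATP6AP1 (0.49), TMEM92 (0.48), MAP1LC3B2 (0.48), EIF5A (0.48) and ZFAND2A (0.48). The lowest values were those of TFPI (-0.50), TMEM123 (-0.49) and SP8 (-0.46). All 10 genes at the top had a lower mean in hatching than in early cells. For ARGFX the mean log2(FPKM + 1) was 3.30 in early, 2.25 in middle, 0.60 in late and 0.01 in hatching cells. Within early cells alone its rho was 0.21, and within middle cells 0.36. Ranked by PRAMEF19 alone, PDCL3 came first (0.61) and 6 of 10 genes were shared with the summed level.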

How the data were processed

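The authors deposited 1 table of FPKM values, 16049 gene symbols by 161 cells; it was used as deposited. Tools listed in the submitters' processing notes, without roles, are TopHat2 2.1.0, HTSeq, DESeq2 and FastQC. Not given in the sources used here were the genome build, the annotation and the treatment of reads that match several copies. Values were set on log2(FPKM + 1), which understates differences of low genes. Reads per gene were recovered from whole steps for 13849 of 13857 genes above 0 in 2 or more cells (relative tolerance 2e-07 or absolute 1e-05), 81.1% to 97.1% of a cell's FPKM. PCR reads carry no molecular identifiers. A difference of 1 log2 unit was used as the size threshold, among genes with mean FPKM of at least 1.

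Cells were clustered within each stage on the 1000 most variable genes, 10 principal components and Ward linkage (k from 2 to 4), and a cluster of at least 5 cells was named with at least 3 raised markers; no cells were removed and no doublets called. Named genes were the PRAMEF rows, PRAME, up to 4 genes per list with the largest hatching minus early difference that reached FPKM of 1 in 50% of the cells of 1 of these stages, the higher one, the 10 highest and 3 lowest by Spearman's rho, and class markers; others were picked after seeing values. The members and lists were chosen with earlier results of these data known. Of the 6 symbols 1 (PRAMEF12) was in the gene name table and 0 in the RefSeq table. Scripts (Python 3.11.15, scikit-learn 1.9.0, scipy 1.17.1, pandas 2.3.3, numpy 2.4.6) were tested on simulated data. Alternatives covered pseudocount, scaling, detection level, filters, cells left out, clustering and the measure of likeness.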

Additional observations from a re-analysis of the deposited data

How the results depend on the processing

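No paired analysis was possible because each stage is 1 sample and the labels pair no cells across stages. Leaving out a replicate does not apply for the same reason. The share of cells with PRAMEF19 depends on the detection level: at FPKM of at least 0.1 it was 63.6% in early, 41% in middle and 9.62% in late cells. The highest rho with the summed level was 0.37 (HES2) as a mean within the 4 stages, with 1 of 10 genes shared. With pseudocounts of 0.1 and 10, the summed level differed by -4.70 and -1.06 hatching minus early and by -2.44 and -0.65 middle minus early, and PRAMEF19 by -3.57 and -0.64 hatching minus early. By the median over cells PRAMEF19 differed by -0.58 hatching minus early. Settings added after seeing the data left out E9 or cells 3 to 12, or took numbered subsets: PRAMEF19, hatching minus early, was -0.81 with early cells 1 to 28 and -3.15 with 29 to 48, and the summed level, late minus middle, was -0.18 with middle cells 3 to 29 and -1.70 with 32 to 55. PRAMEF19, hatching minus late, was -0.24 with a pseudocount of 0.1. No setting turned the direction of a stage difference of 1 log2 unit or more of the PRAMEF sum or members, or hatching minus early of PRAME, DPRX, ARGFX, ZNF280A, CCNA1, UBE2F, CUL2, UHRF1, PDPN, KAZN and MFN2, though of these 11 genes only PRAME, DPRX and ARGFX stayed past 1 log2 unit in all of them. Early cells 1 to 28 without E9 or without cells 3 to 12 were not among these settings. The depth of single cells limits values near 1 read, and reads may be split among near-identical copies.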
